A study of Homo sapiens with 9 samples.

Results

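ACHN is an established human renal carcinoma cell line that grows as an adherent layer. The account below describes its transcriptome in the control group of a drug study: the 3 libraries, of 9 in all, that were made from cells given 0.1% DMSO, the solvent, and grown in MEM medium. They were chosen by that label alone. The other 6 libraries, from cells given piericidin A at 25 nM or 50 nM, are not compared here. Piericidin A blocks complex I of the respiratory chain. The labels call the 3 samples duplicates of a group and do not say whether they came from separate cultures. The spread between them may therefore be technical, and the solvent is present in all 3 libraries, so its own effect cannot be read from them.

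Levels are in FPKM, fragments per kilobase of gene length scaled by a factor for each library, as the authors deposited them. This allows levels to be compared between genes of different length. Whole fragments could be recovered for the 18859 genes with a given length, and they summed to 27394108, 26806226 and 29245674 in replicates 1 to 3. The deposited scale was close to these sums but not equal to them, so FPKM and shares of fragments rest on slightly different scaling. For a protein-coding gene of median length, 4997 bases, 1 FPKM stood for 135 fragments in replicate 1. A gene is called expressed below when it reached 1 FPKM in all 3 libraries and silent when it stayed under 0.1 FPKM in all 3. With 3 libraries of 1 group an exact paired sign-flip test cannot go below p = 0.25. Differences between genes are therefore called by whether their library values overlap, without a test.

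Kidney tubule cells are specified in the embryo by transcription factors such as PAX2, PAX8 and LHX1, and mature tubule segments are then told apart by the carriers that move salt, sugar, phosphate and water. After damage, tubule cells lose many of these carriers and switch on a shared set of injury genes. Cultured renal carcinoma lines can hold parts of each programme, and the genes below are ordered by such roles. Lists of marker genes, enzymes and signalling genes, 51 in all with 997 different members that have a row in the table, give the groups. Another 98 listed genes were without a row and are not analysed here.

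In the DMSO libraries 10543 of 16152 protein-coding genes were expressed (65.3%), and 2934 were silent (18.2%). These shares are the background against which each count below should be read. They cover genes with a row alone. Another 3806 protein-coding genes of the reference annotation GENCODE v29 had no row, so 18.2% is not the silent share of all annotated genes. Over all 30673 genes of the table, 11607 were expressed (37.8%). The protein-coding genes reached a median of 3.44 FPKM. Of them 4125 reached 10 FPKM in all 3 libraries, and 319 reached 100 FPKM in all 3. Levels formed a broad peak above 1 FPKM and a long low shoulder. Genes of every other type, among them non-coding RNA genes, 4486 pseudogenes and 486 genes without an assigned type, were seldom expressed, with 1064 of 14521.

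**Figure D1:**
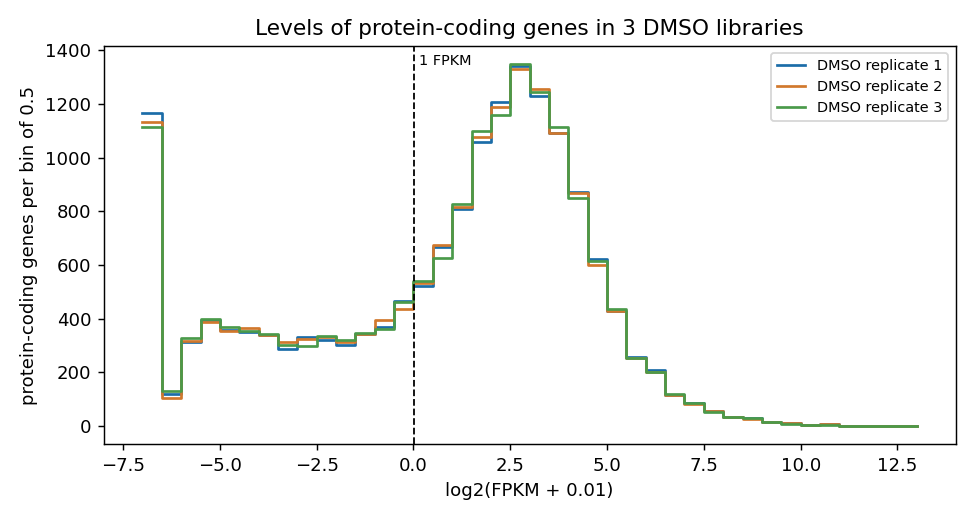
Histogram of the levels of 16152 protein-coding genes in each of the 3 DMSO libraries. The x axis is log2(FPKM + 0.01), the y axis counts genes in bins of 0.5, and the dashed line marks 1 FPKM. The 3 curves lie on each other, with a peak above 1 FPKM and a pile of genes at or near 0 on the left.

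The libraries were close to each other. Over 6834 protein-coding genes with a mean of at least 5 FPKM the median coefficient of variation was 2.54%, and 90% of the genes lay under 5.49%. A chi-square per degree of freedom, which averages 1 where counting error is the whole spread, had a median of 1.29. Under counting error alone the median of such values lies below their average, so 1.29 is not to be set against 1. The chi-square per degree of freedom passed 10 for 173 genes. Of the 10 genes with the largest values 7 came from the mitochondrial genome, described below. At a given relative spread the value grows with the number of fragments, so these 10 are not simply the most variable genes. Their coefficients of variation ran from 3.57% for AHNAK to 51.7% for FOS. IGFN1, an immunoglobulin-type protein known from muscle, stood at 66.4, 83.5 and 79.3 FPKM, with replicate 1 lowest. FOS, an immediate early gene, stood at 11.1, 5.48 and 4.402 FPKM, with replicate 1 far above the others, so that the mean of FOS rests on that library. The 5 smallest coefficients of variation above 50 FPKM, at most 0.135%, were those of PCNP, DENR, CFL1, HNRNPA1 and CDC42. These are the lowest of many values from 3 libraries, so they do not measure how steady each gene is. The chi-square per degree of freedom was 2.86 for HNRNPA1, above the median of 1.29, and 0.155 to 0.356 for the others.

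Of 26 renal transcription factors 14 were expressed, and their median was 1.36 FPKM, so the list as a whole did not stand high. PAX8, which marks renal epithelium and most renal carcinomas, stood at 70.8, 72.7 and 70.3 FPKM. POU3F3, a factor of the thick ascending limb and early nephron, stood at 37.997, 36.8 and 38.3 FPKM. The library values of PAX8 lay above those of every other factor of the list. PAX2, the partner of PAX8, had a mean of 12.3 ± 0.372 FPKM (SD, n = 3) and LHX1 one of 2.62 ± 0.119 FPKM (SD, n = 3). HNF4A, a factor of the adult proximal tubule, was listed at 0 in every library. HNF4G, a relative of HNF4A, was expressed, with 2.098, 1.904 and 2.05 FPKM. GATA3, which acts in the ureteric bud and collecting duct, had a mean of 0.03005 ± 0.03299 FPKM (SD, n = 3).

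Carriers and enzymes of the mature proximal tubule were mostly low. Of 32 genes 8 were expressed, 15 were silent, and the median of the list was 0.0916 FPKM. At a limit of 1 TPM, which is FPKM rescaled to the same sum in every library, 14 of them were expressed. That limit is looser than 1 FPKM, because summed FPKM is lower than summed TPM. Of all 16152 protein-coding genes 11968 reached it, so counts at 1 TPM are to be read against that number. The highest of the proximal tubule list was GGT1, a brush border peptidase, at 17.7, 16.2 and 15.8 FPKM. SLC4A4, the basolateral sodium bicarbonate carrier, followed at 13.2, 13.4 and 13.5 FPKM. The annotated exons of GGT1 overlap those of SNRPD3, and its level is uncertain to that extent. The phosphate carrier SLC34A1 stood at 0.0408, 0.03298 and 0.0151 FPKM, the endocytic receptor CUBN at 0.0729, 0.0851 and 0.06505 FPKM, and the organic cation carrier SLC22A2 was listed at 0. AQP1, the water channel of the proximal tubule, stood at 0.0451, 0.0114 and 0.115 FPKM, but 68.3% of its coding bases are shared with another gene of the same strand, and its level is uncertain, like those of the complex I subunits described below. None of the 8 aquaporins with a row was expressed, though 1 was at a limit of 0.5 FPKM and 2 were at 1 TPM.

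Of 23 genes of the distal nephron and collecting duct 3 were expressed and 10 were silent, with a median of 0.0966 FPKM. At the looser limit of 1 TPM 8 of them were expressed. The highest was CLDN16, which forms the magnesium-conducting tight junction of the thick ascending limb, at 78.4, 74.7 and 77.6 FPKM. It was the second most abundant of 17 claudins after CLDN1, at 170.4, 167 and 172 FPKM, and the values of the 2 genes did not overlap. The salt carriers of the same segments were near 0: SLC12A1 had a mean of 0.000998 ± 0.00173 FPKM (SD, n = 3) and SLC12A3 one of 0.0235 ± 0.0182 FPKM (SD, n = 3). WNK4, a kinase that controls them, was expressed, with 3.02, 3.11 and 3.06 FPKM.

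The injury list was the reverse of these. All 18 members with a value were expressed, with a median of 35.3 FPKM. PROM1 and CDH6, which are also on the list, had no row and are not analysed here. HAVCR1, the injury marker of the proximal tubule, stood at 72.4, 73.9 and 75.9 FPKM. SPP1, which encodes osteopontin, stood at 367, 359 and 362 FPKM, and CD24, a surface protein of tubule progenitors, at 145, 142 and 138 FPKM. VCAM1 and LCN2, which are switched on in damaged tubules, were lower, with 9.86, 10.6 and 10.7 FPKM for VCAM1 and 8.83, 8.51 and 8.02 FPKM for LCN2. Several members, among them VIM, KRT8 and KRT18, are also common in cultured cells of other origins, so the list is no measure of kidney injury here.

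**Figure D2:**
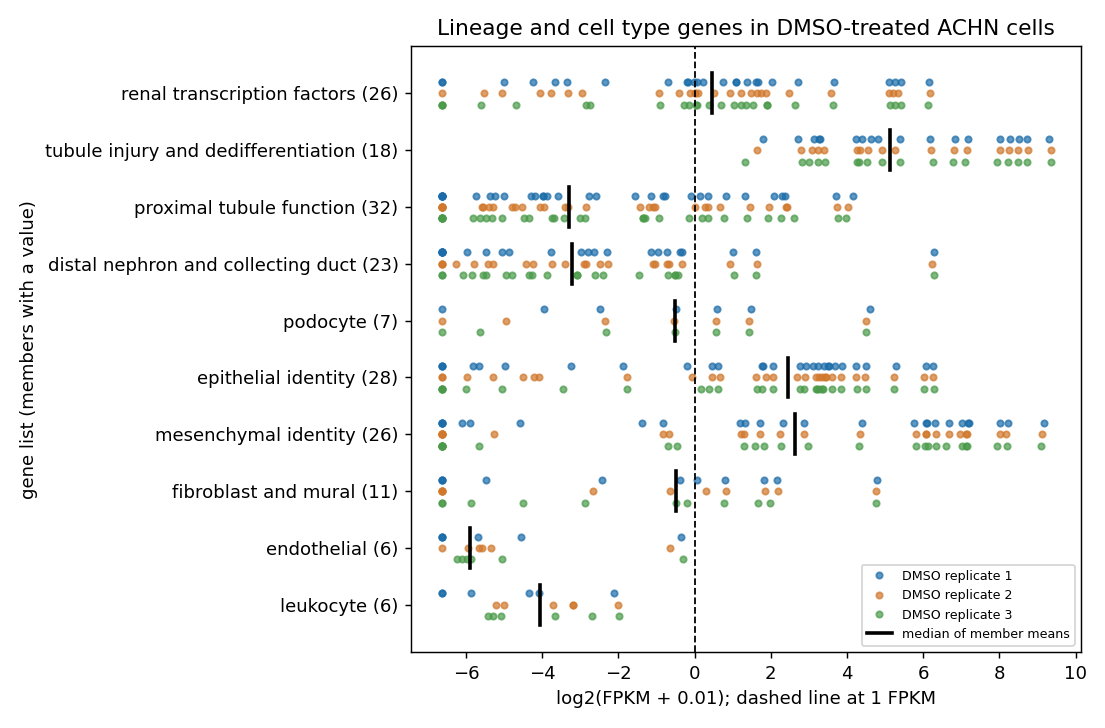
Levels of lineage and cell type genes in the 3 DMSO libraries, 1 point per gene and library, on a log2(FPKM + 0.01) axis. Black bars mark the median of the members' means and the dashed line 1 FPKM. All injury genes with a row lie to the right of the line, while the proximal and distal tubule lists have medians of 0.0916 and 0.0966 FPKM.

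Of 28 epithelial genes 19 were expressed and 7 were silent, and of 26 mesenchymal genes 17 were expressed and 7 were silent. Both shares expressed, 67.9% and 65.4%, were near the 65.3% of all protein-coding genes. CDH2, the cadherin of mesenchymal and of proximal tubule cells, stood at 68.7, 67.9 and 69.97 FPKM, against 3.44, 3.68 and 3.38 FPKM for CDH1, the epithelial cadherin. VIM, an intermediate filament of mesenchymal cells, stood at 257, 257 and 247 FPKM and FN1, fibronectin, at 300.1, 288 and 294 FPKM. Desmosome and junction genes were expressed beside them: DSG2 had 76.7, 77.00 and 77.5 FPKM and EPCAM 10.5, 10.2 and 9.67 FPKM. The repressor of epithelial genes ZEB1 had a mean of 7.495 ± 0.332 FPKM (SD, n = 3), whereas TWIST1 was listed at 0 and the epithelial splicing factor ESRP1 had a mean of 0.00763 ± 0.00766 FPKM (SD, n = 3). KRT19 led the 15 keratins at 313, 307 and 300.2 FPKM, above KRT8 at 114, 111 and 109.5 FPKM. KRT7, which is used to tell renal tumour types apart, stood at 3.43, 3.09 and 2.49 FPKM. KRT86 overlaps KRT7 on the same strand, and the level of KRT7 is uncertain to that extent.

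Markers of other cells that a tissue sample could hold differed by list. None of 6 leukocyte markers and none of 6 endothelial markers was expressed, and the summed level of the leukocyte markers was 0.317, 0.539 and 0.504 FPKM and that of the endothelial markers 0.814, 0.668 and 0.838 FPKM in replicates 1 to 3. ESAM, an adhesion protein of endothelium, gave most of the second sum, and VWF and CDH5 were at 0 in replicate 1. CD68 shares 97.6% of its coding bases with another gene and is uncertain. Of 11 fibroblast and mural markers 4 were expressed, with THY1 highest at 27.5, 26.9 and 26.9 FPKM. Of the fibroblast collagen genes COL1A1 was expressed, at 1.72, 1.76 and 1.68 FPKM, and COL3A1 and COL1A2 were listed at 0 in every library. The summed level of the fibroblast and mural list was 39.3, 38.8 and 37.4 FPKM. Of 13 markers of other organs 2 were expressed, PMEL, a pigment cell protein, at 2.25, 2.37 and 2.13 FPKM and GFAP, an astrocyte filament, at 2.17, 1.96 and 2.07 FPKM. The part of such cells in these values was not tested. Among collagens of the basement membrane COL4A2 stood at 112, 107 and 107 FPKM and COL4A1 at 54.2, 53.5 and 54.5 FPKM.

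The HOX genes, which set position along the body axis, had 26 of 37 members expressed (70.3%), near the share over all protein-coding genes, and none silent. HOXA9 was highest, at 21.1, 21.7 and 22.5 FPKM, and HOXB7 followed at 13.4, 13.7 and 14.7 FPKM. HOXD1 was lowest, with a mean of 0.0724 ± 0.0335 FPKM (SD, n = 3). HOXD3 and HOXD4 share 87.3% or more of their coding bases with another gene and are uncertain. Each of the HOX clusters had an expressed member.

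Among markers used in renal carcinoma, 14 of 22 were expressed. ANGPTL4, a secreted lipase inhibitor, led them at 268, 271 and 267 FPKM, followed by CAV1, the coat protein of caveolae, at 218, 216 and 216 FPKM. MET, the receptor that is activated in hereditary papillary renal carcinoma, stood at 146, 149 and 149 FPKM, and PLIN2, the coat protein of lipid droplets, at 93.97, 93.02 and 94.8 FPKM. CA9, the carbonic anhydrase that marks clear cell carcinoma with loss of VHL, was low, at 0.752, 0.962 and 0.698 FPKM. NDUFA4L2 and EGLN3, further genes known to be high in clear cell carcinoma, were low too, with means of 0.544 ± 0.0612 FPKM (SD, n = 3) and 0.279 ± 0.0369 FPKM (SD, n = 3). VHL itself was expressed, with 18.5, 19.1 and 20.01 FPKM. FABP7 was listed at 0, and AMACR, a marker of papillary carcinoma, had a mean of 0.154 ± 0.01899 FPKM (SD, n = 3) with 67.1% of its coding bases shared, which leaves it uncertain.

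The genes of inherited and sporadic renal cancer were present as RNA with few exceptions: 29 of 32 were expressed. FH, the fumarase of hereditary leiomyomatosis, stood at 29.2, 27.8 and 27.7 FPKM, and BAP1 and PBRM1, chromatin genes that are often mutated in renal carcinoma, had 22.2, 21.3 and 21.7 FPKM for BAP1 and 4.12, 4.201 and 4.41 FPKM for PBRM1. RNA levels say nothing of mutations. CDKN2A and TERT, the telomerase gene, lay under 1 FPKM, with means of 0.399 ± 0.0585 FPKM (SD, n = 3) and 0.103 ± 0.0537 FPKM (SD, n = 3), and MTAP was listed at 0 in all 3 libraries.

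MTAP lies beside CDKN2A on the short arm of chromosome 9, and its neighbours were therefore read in order. FOCAD (chr9:20658309-20995955), a gene of focal adhesions that most tissues express, KLHL9 (chr9:21329671-21335380), a ubiquitin ligase adaptor, and MTAP (chr9:21802543-21937651), an enzyme of methionine salvage, were all listed at 0 in every library, with hg38 positions. Across the genome 465 of 16152 protein-coding genes with a row were at 0 in all 3 libraries. No row was at 0 in all 9 libraries, so FOCAD, KLHL9 and MTAP each had a value above 0 in a library given piericidin A. The type I interferon genes between FOCAD and MTAP, and MLLT3 and HACD4 beside FOCAD, had no row and are not analysed here. On the telomeric side SLC24A2 stood at 0.691, 0.827 and 0.924 FPKM and ACER2, a ceramidase, at 4.74, 4.77 and 4.16 FPKM. On the other side CDKN2A (chr9:21967753-21995301) stood at 0.358, 0.466 and 0.372 FPKM and CDKN2B at 3.92, 3.98 and 4.36 FPKM, both cyclin kinase inhibitors. CDKN2B-AS1 overlaps this pair and the strandedness of the libraries was not given, so their reads cannot be told apart from it. Further on, CAAP1 and PLAA had 10.3, 10.4 and 10.6 FPKM for CAAP1 and 14.5, 14.1 and 13.2 FPKM for PLAA. DNA was not measured, and the cause of the zeros was not tested.

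**Figure D3:**
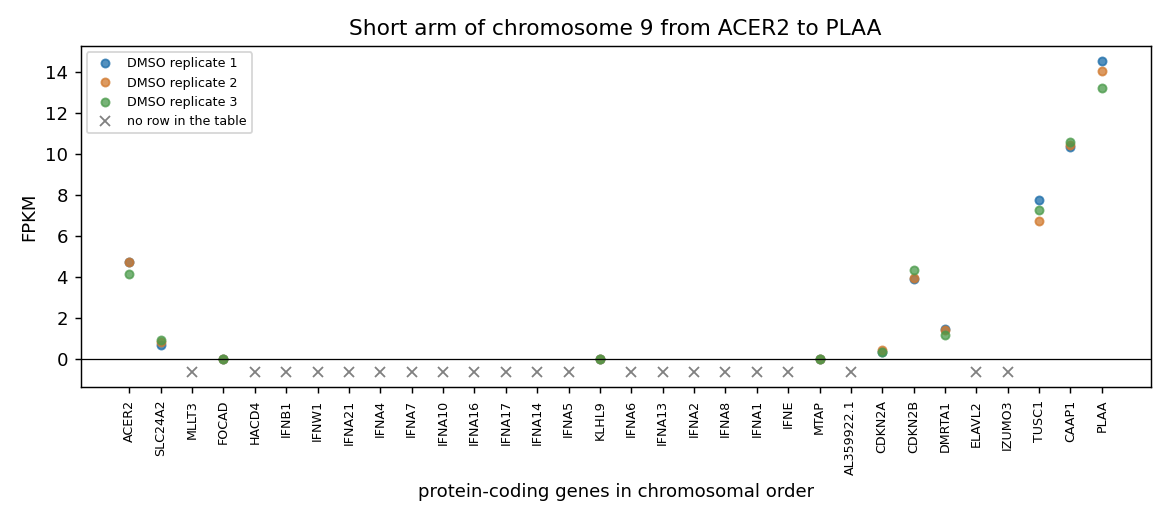
FPKM in each DMSO library of the protein-coding genes around CDKN2A, in their order on chromosome 9, with crosses for genes that have no row. FOCAD, KLHL9 and MTAP lie at 0 in all 3 libraries, and levels from TUSC1 to PLAA lie above 6 FPKM.

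Among larger gene families, 21 of 386 olfactory receptor genes had a row, and none of these was expressed. Of the mitochondrial ribosomal protein genes 72 of 78 were expressed, and of the proteasome subunits with a row 35 of 39.

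TMSB10, an actin-binding thymosin, led the protein-coding genes at 3554, 3576 and 3514 FPKM, and its values lay above those of all other nuclear protein-coding genes. MT2A, a metallothionein that binds zinc and copper, stood at 1853, 1929 and 1816 FPKM, and EEF1A1, the elongation factor of translation, at 1851, 1847 and 1822 FPKM. The library values of these 2 genes overlapped, so they could not be ordered. Cytosolic ribosomal protein genes, 86 in all, held 6.92% ± 0.0549 (SD, n = 3) of the fragments, and the 10 most abundant nuclear protein-coding genes held 3.18% ± 0.0353. Many of these genes have processed copies of near-identical sequence, and the copy RPL41P1 alone was listed at 2517, 2570.4 and 2465 FPKM. Levels of such gene and copy pairs, and of ACTB and ACTG1, are uncertain where the counting split reads between them.

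Metallothioneins held 0.373% ± 0.0133 of the fragments over 8 genes, of which 7 were expressed. MT1E was the second, at 1086, 1156 and 1083 FPKM, and MT1M the third, at 129, 136 and 125 FPKM, and the order of these genes was the same in each library. MT1G stood near 0, with 0.0493, 0.0996 and 0 FPKM. Members of this family resemble each other closely, so their split is uncertain. Transcription of metallothionein genes is controlled through metal response elements, short motifs bound by the factor MTF1. The 250 bases before the start of MT2A, from RefSeq on GRCh38.p14 (chr16:56608334-56608583, plus strand), are shown because they hold the motif many times. Capitals mark the motif core, searched as TGCGCNC or TGCACNC on both strands.
MT2A: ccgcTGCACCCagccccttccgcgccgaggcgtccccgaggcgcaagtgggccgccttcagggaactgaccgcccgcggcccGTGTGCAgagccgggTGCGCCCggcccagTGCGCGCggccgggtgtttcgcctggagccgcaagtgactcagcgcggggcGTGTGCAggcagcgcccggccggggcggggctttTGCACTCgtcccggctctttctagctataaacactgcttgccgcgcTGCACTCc
The window held 7 matches that did not overlap. Of 27305 RefSeq promoter windows of the same length 24.7% held at least 1 match, and 8 of them held 7 or more. A match is a run of letters and not a measured binding site.

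The most abundant of the inflammatory genes were chemokines. CXCL8, a neutrophil attractant, stood at 637, 653 and 653 FPKM and ranked among the 30 highest protein-coding genes, as did CXCL1 at 536, 521 and 528 FPKM. CXCL2 stood at 214, 217 and 211 FPKM and CXCL3 at 28.4, 29.1 and 28.1 FPKM, while CXCL5, a neighbour in the same cluster on chromosome 4, stood at 0.189, 0.132 and 0.337 FPKM. IL6, a cytokine of acute inflammation, stood at 199, 199.8 and 204 FPKM and LIF, its relative, at 76.5, 76.6 and 75.1 FPKM. The upstream cytokines were near 0: TNF had a mean of 0.245 ± 0.0556 FPKM (SD, n = 3) and IL1B one of 0.00402 ± 0.00696 FPKM (SD, n = 3). In all, 29 of 36 inflammatory and interferon genes were expressed. NFKBIA and TNFAIP3, which NF-kB switches on and which restrain it, had 108, 105 and 102 FPKM for NFKBIA and 34.4, 34.5 and 33.8 FPKM for TNFAIP3.

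The promoters of these chemokine genes and of IL6 are shown because neighbours in 1 cluster stood far apart in level. Each line gives the 250 bases before the RefSeq start on GRCh38.p14. The windows are chr4:73740319-73740568 for CXCL8 and chr4:73869143-73869392 for CXCL1 on the plus strand. On the minus strand they are chr4:74099196-74099445 for CXCL2, chr4:74038690-74038939 for CXCL3 and chr4:73998678-73998927 for CXCL5. For IL6 the window is chr7:22726950-22727199 on the plus strand. Capitals mark matches to the NF-kB consensus motif or to the form GGAATTTCC, searched on both strands, with overlapping matches joined.
CXCL8: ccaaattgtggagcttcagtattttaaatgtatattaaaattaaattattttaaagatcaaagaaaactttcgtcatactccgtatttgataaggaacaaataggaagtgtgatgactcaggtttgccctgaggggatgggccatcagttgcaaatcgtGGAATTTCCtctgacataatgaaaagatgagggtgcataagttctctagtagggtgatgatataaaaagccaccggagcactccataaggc
CXCL1: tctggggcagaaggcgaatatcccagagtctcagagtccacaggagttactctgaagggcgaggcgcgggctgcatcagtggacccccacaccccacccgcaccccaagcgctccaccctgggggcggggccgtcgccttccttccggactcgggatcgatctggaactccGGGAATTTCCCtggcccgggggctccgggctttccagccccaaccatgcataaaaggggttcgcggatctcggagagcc
CXCL2: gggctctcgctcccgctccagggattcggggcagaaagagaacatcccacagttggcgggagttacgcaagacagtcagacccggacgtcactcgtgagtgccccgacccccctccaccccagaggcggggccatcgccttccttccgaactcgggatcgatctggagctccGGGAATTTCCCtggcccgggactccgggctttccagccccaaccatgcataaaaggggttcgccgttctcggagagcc
CXCL3: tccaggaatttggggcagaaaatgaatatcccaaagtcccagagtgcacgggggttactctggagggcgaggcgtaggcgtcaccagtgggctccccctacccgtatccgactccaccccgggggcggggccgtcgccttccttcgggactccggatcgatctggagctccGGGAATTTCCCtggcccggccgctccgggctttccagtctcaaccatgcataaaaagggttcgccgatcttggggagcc
CXCL5: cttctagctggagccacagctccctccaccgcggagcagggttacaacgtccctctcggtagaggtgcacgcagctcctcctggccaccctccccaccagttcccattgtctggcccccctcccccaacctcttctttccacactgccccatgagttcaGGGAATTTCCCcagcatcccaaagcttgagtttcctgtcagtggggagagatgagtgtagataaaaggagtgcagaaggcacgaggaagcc
IL6: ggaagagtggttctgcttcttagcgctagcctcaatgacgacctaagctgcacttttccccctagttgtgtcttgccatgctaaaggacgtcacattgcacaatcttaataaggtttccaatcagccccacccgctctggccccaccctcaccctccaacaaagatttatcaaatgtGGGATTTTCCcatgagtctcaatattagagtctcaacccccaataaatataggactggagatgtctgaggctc
Each of the 6 windows held 1 match, which began 73 to 91 bases before the start, and 9.76% of all 27305 windows held any. In CXCL8 the match was to the form GGAATTTCC alone and not to the consensus. It thus depends on a form added to the search, and the 6 windows are not to be weighed against the 9.76%. CXCL1, CXCL2, CXCL3 and CXCL5 carried the same 11 letters, and CXCL5 did so at a level under 1 FPKM. CXCL6, of the same cluster and listed at 0, carried these letters too, and CCL20 on chromosome 2, with a mean of 14.5 FPKM, held 1 match.

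MX1 and IFIT1, antiviral genes that interferons switch on, had 1.31, 1.49 and 1.52 FPKM for MX1 and 5.06, 5.61 and 5.33 FPKM for IFIT1. IRF9 had a mean of 0.118 ± 0.0339 FPKM (SD, n = 3) but shares 88.9% of its coding bases with another gene and is uncertain. Class I antigen presentation was on, with HLA-C at 267, 255 and 256 FPKM and B2M, its light chain, at 159, 154 and 155 FPKM. HLA genes are alike and highly variable between people, so reads may be lost or split between them. Class II was low: HLA-DRA was listed at 0 and its activator CIITA had a mean of 0.0196 ± 0.00383 FPKM (SD, n = 3), although CD74, the invariant chain, stood at 25.2, 23.7 and 23.4 FPKM. CD274, which encodes PD-L1, stood at 3.51, 4.200 and 3.96 FPKM.

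Of the receptor tyrosine kinases, 21 of 51 were expressed and 21 were silent, with a median of 0.399 FPKM. A few members held most of the level. MET led at 146, 149 and 149 FPKM, followed by EGFR at 125, 123 and 127 FPKM, AXL at 99.5, 98.2 and 96.1 FPKM and EPHA2 at 83.9, 79.7 and 78.2 FPKM. The library values of these 4 did not overlap, and all lay above PTK7, the next, at 21.7, 20.1 and 20.9 FPKM. EGFR held 89.3% ± 0.194 of the summed FPKM of the 4 ERBB genes. The insulin receptor INSR was low, at 0.141, 0.154 and 0.141 FPKM, beside IGF1R, the receptor for insulin-like growth factors, at 12.2, 11.6 and 11.9 FPKM. PDGFRA and ERBB4 had means of 0.00235 ± 0.00407 FPKM (SD, n = 3) and 0.00182 ± 0.00158 FPKM (SD, n = 3), and ALK was listed at 0.

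The ligands were unevenly matched to these receptors. TGFA, a ligand of EGFR, was the highest of 35 growth factor genes at 179.8, 174 and 177 FPKM, and 5 further EGFR ligands or relatives, EREG, AREG, NRG1, BTC and HBEGF, were expressed with means between 6.43 and 14.1 FPKM. HGF, the ligand of MET, was under 1 FPKM, with 0.166, 0.176 and 0.123 FPKM. GAS6, the ligand of AXL, stood at 32.8, 31.96 and 31.9 FPKM, and EFNA1, a ligand of EPHA2, at 29.2, 28.96 and 29.4 FPKM. In all, 24 of the 35 ligand genes were expressed. Ligand and receptor RNA in one culture does not show that the receptor was active.

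Downstream of the receptors, 34 of 36 RAS, MAPK and PI3K genes were expressed, with a median of 7.83 FPKM over the list. Means of the expressed members ran from 1.14 FPKM for PIK3R3 to 21.9 FPKM for NRAS. NRAS had the highest level of the list at 21.4, 22.7 and 21.7 FPKM. ARAF and BRAF could not be ordered, since ARAF had 8.39, 7.92 and 8.36 FPKM and BRAF 7.75, 8.26 and 7.94 FPKM. PIK3CD, the catalytic subunit best known from leukocytes, held 51.4% ± 0.274 of the summed FPKM of 4 subunits. PIK3R2 stood near 0, but 98.8% of its coding bases are shared with another gene and it is uncertain.

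Of the TGF-beta and BMP genes 24 of 31 were expressed. GDF15, a secreted stress marker, led them at 429, 407 and 409 FPKM, and INHBA, a subunit of activin, followed at 76.7, 78.2 and 74.5 FPKM. SMAD3 stood at 69.6, 69.7 and 70.6 FPKM and SMAD2, its close relative, at 2.43, 2.49 and 2.55 FPKM. All 22 Hippo pathway genes were expressed. CYR61 and CTGF, matrix proteins that YAP1 and the TEAD factors switch on, had 581, 555 and 548 FPKM for CYR61 and 78.9, 80.9 and 80.4 FPKM for CTGF. YAP1 stood at 21.2, 20.5 and 21.4 FPKM and WWTR1, its partner TAZ, at 24.99, 24.6 and 24.5 FPKM. Of the WNT, NOTCH and Hedgehog genes 22 of 35 were expressed. NOTCH2 held 76.7% ± 0.898 of the level of the 4 NOTCH genes, and AXIN2, a target of WNT signalling, had a mean of 0.2502 ± 0.0669 FPKM (SD, n = 3).

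Cell cycle genes were on, as 27 of 31 members were expressed and none was silent. The proliferation marker MKI67 stood at 30.8, 32.2 and 32.8 FPKM, TOP2A at 127, 129 and 129 FPKM and PCNA at 84.6, 85.00 and 88.9 FPKM. The inhibitor CDKN1A, which encodes p21, was the highest of the list at 187, 181 and 176 FPKM. MYC stood at 78.2, 69.1 and 72.6 FPKM, and MYCL had a mean of 0.139 ± 0.0541 FPKM (SD, n = 3). CCND1 held 58.3% ± 0.314 of the level of the 3 D-type cyclins.

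Single isoforms held most of the level at several steps of glucose metabolism. SLC2A1, the glucose carrier GLUT1, stood at 169, 159 and 158 FPKM and held 75.4% ± 0.565 of the summed FPKM of 13 facilitative carriers, while the proximal tubule carriers SLC2A2 and SLC5A2 had means of 1.01 ± 0.103 FPKM (SD, n = 3) and 0.0386 ± 0.02703 FPKM (SD, n = 3). The 26 glycolytic genes held 2.31% ± 0.0415 of the fragments, and 18 of them were expressed. HK2 was highest of the hexokinases at 69.5, 66.7 and 67.3 FPKM, above HK1 at 59.1, 54.5 and 55.05 FPKM, and HKDC1, a hexokinase of narrower expression, came close to HK1 at 52.4, 50.6 and 53.2 FPKM. The muscle-type, liver-type and platelet-type phosphofructokinases were all present, and PFKP held 69.7% ± 0.170. PFKFB3, which makes the activator of phosphofructokinase, stood at 146, 141 and 139.5 FPKM and held 90.1% ± 0.372 of its family. ALDOA, the aldolase of muscle and most other tissues, stood at 444, 429 and 415 FPKM. ENO2, an enolase known from neurons and from renal tumours, stood at 134, 129.7 and 125 FPKM below ENO1 at 620.2, 581 and 583 FPKM.

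Pyruvate can leave the cell as lactate or enter mitochondria. LDHA stood at 563, 537 and 551 FPKM and LDHB at 388, 376 and 386 FPKM, so that LDHA held 59.0% ± 0.234 of the level of the family. SLC16A1, the lactate carrier MCT1, stood at 41.5, 40.99 and 42.1 FPKM, and SLC16A3, the export carrier MCT4, was under 1 FPKM at 0.398, 0.473 and 0.385 FPKM. Other annotated genes of the same strand overlap SLC16A3, and its level is uncertain to that extent. BSG, the chaperone of SLC16A1 and SLC16A3, stood at 170.3, 156 and 162 FPKM. Of the pyruvate dehydrogenase kinases PDK1 was the highest at 11.6, 11.6 and 11.6 FPKM. Of 6 genes of glucose production 3 were expressed. They were G6PC3, a widely expressed glucose-6-phosphatase, at 16.6, 15.1 and 16.3 FPKM, its carrier SLC37A4 at 5.43, 5.56 and 5.500 FPKM and PCK2, the mitochondrial phosphoenolpyruvate carboxykinase, at 5.31, 4.81 and 5.25 FPKM. The cytosolic form PCK1 had a mean of 0.0124 ± 0.00335 FPKM (SD, n = 3) and FBP1 one of 0.109 ± 0.0401 FPKM (SD, n = 3).

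**Figure D4:**
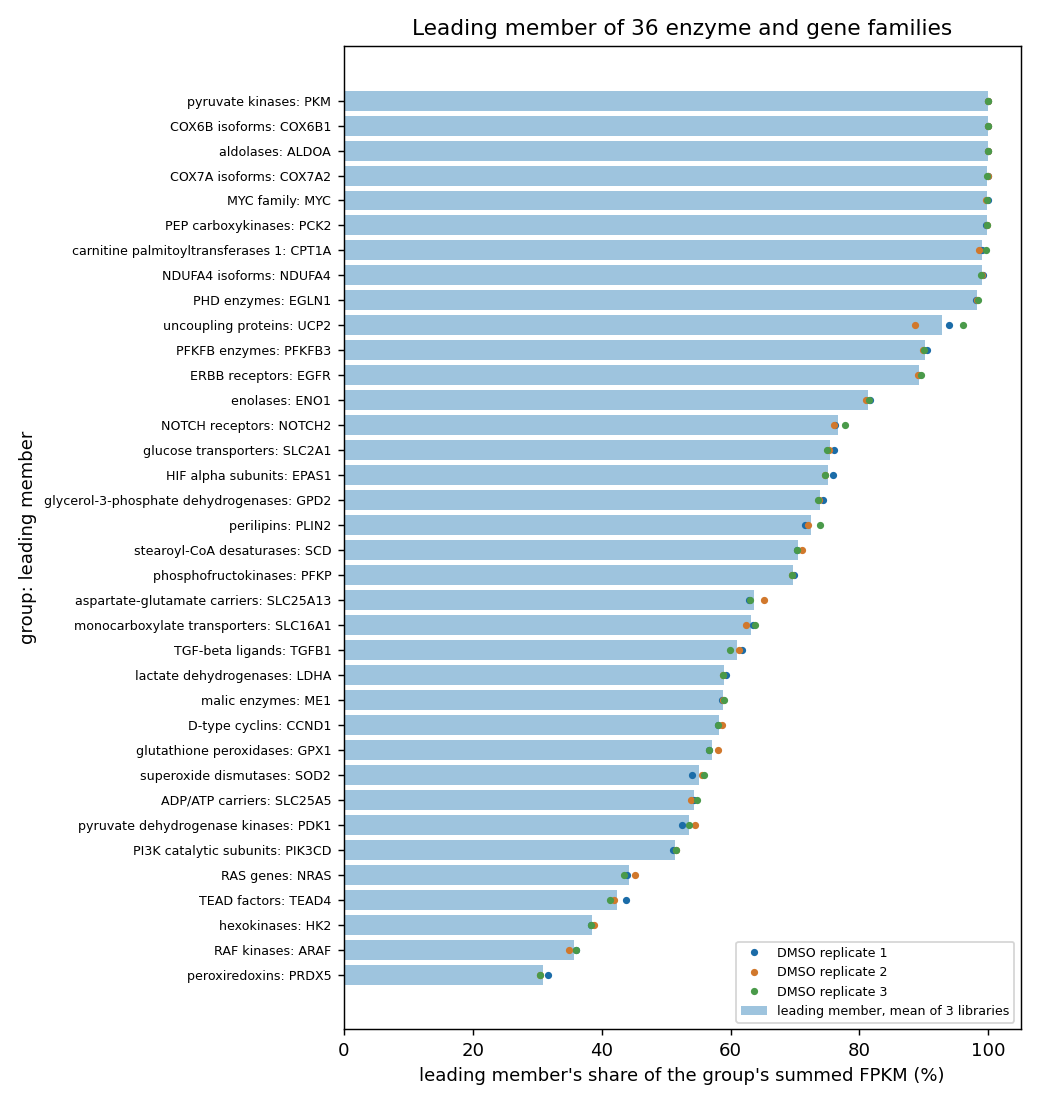
Share of the summed FPKM that the leading member held in 36 of the 38 families, with a bar for the mean of the 3 DMSO libraries and a point for each library. Shares run from 30.8% for PRDX5 among the peroxiredoxins to nearly the whole for PKM among the pyruvate kinases, and library points lie close together.

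In 37 of 38 families with at least 2 members in the table the lowest library value of the leading gene lay above the highest value of every other member, and the RAF kinases were the exception. In 31 families the same gene led when fragments were not divided by length. ADP/ATP carriers, malic enzymes, peroxiredoxins, RAS genes, RAF kinases, TEAD factors and TGF-beta ligands had another leader on that scale, so their order depends on the gene lengths in the authors' table.

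All 24 genes of the tricarboxylic acid cycle were expressed, with means from 1.40 FPKM for IDH3A to 53.0 FPKM for MDH2. Among genes of fat metabolism ACLY, the source of cytosolic acetyl-CoA, stood at 141, 135 and 137 FPKM, and ACADVL, the first enzyme of long-chain oxidation, at 123, 121 and 117 FPKM. Of 23 oxidation genes 17 were expressed and of 21 synthesis and storage genes 16. In sterol synthesis 19 of 20 genes were expressed.

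Genes that respond to hypoxia were high in part. EPAS1, which encodes HIF-2 alpha, stood at 91.4, 87.1 and 87.3 FPKM and HIF1A at 29.04, 29.6 and 29.6 FPKM, so that EPAS1 held 75.1% ± 0.709 of the level of the 3 HIF alpha genes. EGLN1 led the prolyl hydroxylases at 40.7, 40.5 and 41.4 FPKM, and EGLN2 stood at 0.483, 0.4599 and 0.417 FPKM but shares 93.4% of its coding bases with another gene and is uncertain. LOX and P4HA1, which modify collagen, had 144, 141 and 139 FPKM for LOX and 133, 131 and 127 FPKM for P4HA1. In all, 22 of 26 genes of the list were expressed, with a median of 31.5 FPKM. VEGFA, the vascular growth factor, stood at 24.5, 23.9 and 23.3 FPKM. HIF proteins are controlled mainly by their breakdown, which RNA does not show.

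Of the defences against peroxide and superoxide 26 of 27 were expressed, with a median of 67.6 FPKM. FTL and FTH1, the ferritin chains, had 867, 871 and 859.8 FPKM for FTL and 214, 223 and 228 FPKM for FTH1, and both have processed copies. The mitochondrial SOD2 stood at 105, 109.7 and 110.2 FPKM, above the cytosolic SOD1 at 77.4, 77.2 and 76.7 FPKM. NQO1, a quinone reductase, stood at 68.8, 66.6 and 67.4 FPKM. AIFM2, which reduces coenzyme Q at the membrane, stood at 9.52, 8.73 and 9.27 FPKM, and DHODH, which passes electrons to the same pool, at 1.62, 1.71 and 1.68 FPKM.

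The mitochondrial genome held 2.53% ± 0.182 of the fragments, with 1.58% ± 0.120 in messenger RNAs and 0.941% ± 0.0616 in the 2 ribosomal RNAs. MT-CO1, a subunit of cytochrome oxidase, stood at 3326, 3192 and 2858 FPKM, and MT-ND4, a subunit of complex I, at 1877, 1879 and 1588 FPKM. Replicate 3 was the lowest library for 14 of the 15 listed mitochondrial genes. MT-ATP8 was the exception, at 2.32, 3.25 and 3.81 FPKM, and it overlaps MT-ATP6 on the same strand, so its level is uncertain. The share of the mitochondrial genome was 2.65%, 2.63% and 2.32% in replicates 1 to 3, and that of the ribosomal protein genes 6.95%, 6.95% and 6.85%. What set replicate 3 apart was not tested, and how the RNA was selected is not given in the sources used here.

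Complex I, the target of piericidin A, passes electrons from NADH to coenzyme Q and is built from subunits of both genomes. Of 37 nuclear subunits 30 were expressed, with a median of 12.5 FPKM. NDUFS5 was the highest at 202, 202 and 195 FPKM, and the core subunit NDUFV1 stood at 26.2, 25.1 and 24.4 FPKM. The other 7 lay under 1 FPKM, although the assembled complex holds their proteins too. NDUFV2, a core iron-sulphur subunit, stood at 0.2998, 0.289 and 0.316 FPKM, and NDUFS7, another, at 0.0785, 0.0892 and 0.114 FPKM. NDUFA11 stood at 0.351, 0.293 and 0.2903 FPKM.

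The low values lay mostly with genes that overlap others. In GENCODE v29, which is a reference of the same genome build and may not be the authors' annotation, 7 of the 37 genes share coding bases with another gene on the same strand, such as a read-through gene. Their mean levels ran from 0.146 to 1.12 FPKM with a median of 0.566 FPKM, and 1 of the 7, NDUFA9, was expressed. Of the other 30 subunits 29 were expressed, with a median of 23.8 FPKM. The exception was NDUFS7, of whose coding bases 48.5% are shared with a gene on the opposite strand. Over all protein-coding genes 66.9% of 14437 genes without shared bases on their own strand were expressed, against 24.5% of 355 genes with 90% or more of them shared. Whether the counting left out reads that fit more than 1 gene was not tested. High levels of some shared genes, such as ALDOA and LDHB, show that sharing in this annotation did not always go with a low value. Among the list members 38 share 50% or more of their coding bases, and 19 of these 38 were expressed.

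**Figure D5:**
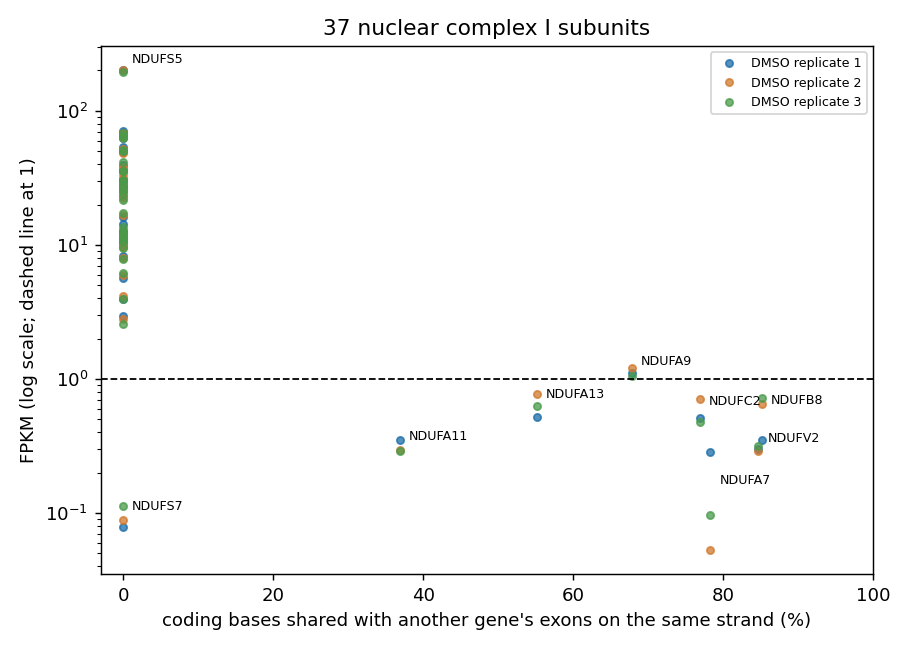
Levels of 37 nuclear complex I subunits in the 3 DMSO libraries, on a log FPKM axis, against the percent of their coding bases that lie in exons of another gene on the same strand. Subunits without shared bases stand above 2 FPKM apart from NDUFS7, and the 7 with shared bases lie at or under 1.20 FPKM.

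Of 21 genes in the list of respiratory chain isoforms, which holds common and tissue-restricted forms, 14 were expressed. COX7A2, the common form of its cytochrome oxidase subunit, stood at 64.8, 66.2 and 64.4 FPKM and COX7A1, the muscle form, had a mean of 0.0938 ± 0.0689 FPKM (SD, n = 3). SLC25A5 led the ADP/ATP carriers at 163, 157 and 164 FPKM, with SLC25A4, the muscle form, at 6.09, 6.24 and 6.23 FPKM. UCP1 had a mean of 0.03397 ± 0.0391 FPKM (SD, n = 3). Across the drug efflux pumps, 5 of 9 were expressed, ABCC1 highest at 28.9, 28.8 and 28.6 FPKM, and ABCB1, the pump that removes many anticancer drugs, stood at 5.001, 4.96 and 4.898 FPKM.

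Promoter sequence was then set beside the level of all protein-coding genes. A RefSeq window from 250 bases before to 50 after the start was found for 12968 of 16134 genes (80.4%). CpG-rich means an observed over expected CpG count of at least 0.6. Of genes with means above 1 to 10 FPKM 84.9% had a CpG-rich window (95% Wilson interval 83.9% to 85.8%), and the share was 88.8% (87.7% to 89.9%) above 10 to 100 FPKM and 88.3% (83.8% to 91.7%) above 100 FPKM. The letters TATAAA, on either strand, stood in 4.56% of windows above 1 to 10 FPKM, in 4.87% above 10 to 100 FPKM and in 12.1% (8.63% to 16.6%) of 257 windows above 100 FPKM. Over all matched windows 74.9% were CpG-rich and 7.09% held TATAAA. Genes at 0 and above 0 to 1 FPKM had a window in 70.5% and 75.2% of cases, under the 80% required, so the comparison with them is void. The values over all matched windows include these genes and are therefore no baseline for the higher classes. The intervals cover counting error alone, and genes are not independent samples.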

How the data were processed

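RNA sequencing of 9 ACHN libraries was deposited by the authors, and the 3 libraries labelled DMSO were used here. The table of the authors holds FPKM for 30673 genes. A second deposited table holds log2 FPKM of the 18859 genes above 0 in all 9 libraries, equal to the log2 of the first to within 0.005, with symbol, position, length and type. The build was hg38, per the submitters' processing notes. Aligner, counter, annotation, RNA selection and strandedness are not given in the sources used here.

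FPKM times length was a whole multiple of 1 step per library for 100% of those 18859 genes (tolerance 0.01), which gave whole fragments for depth, shares of fragments and the chi-square. The same steps were tested on simulated data. A share below the limit of 3 fragments per library (0.110, 0.112 and 0.103 CPM) cannot be told from 0. Types and positions of other genes, and overlaps of exons, came from GENCODE v29, and promoters from RefSeq. Tools were Python 3.11.15, pandas 2.3.3, numpy 2.4.6, scipy 1.17.1 and matplotlib 3.10.9. The plan foresaw the same levels from counts, and since the values are FPKM those were used directly.

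Members and lists were chosen with earlier results of these data known. Named genes were the 30 most abundant nuclear protein-coding genes and 10 other nuclear genes, the mitochondrial genes and members of enzyme and gene families. Up to 8 highest and 8 lowest members of other lists, the ends of silent runs and the neighbours of CDKN2A were added. So were the 10 genes of largest chi-square per degree of freedom and the 5 of smallest coefficient of variation. Enzyme families were grouped after the data were seen. AIFM2, CCL20, CD274, CD74, CDH1, CDH2, CUBN, CXCL3, CXCL6, EPCAM, HNF4G, IFIT1, LHX1, MKI67, SLC34A1, SMAD2, TNFAIP3, VHL, YAP1 and ZEB1 fall outside that rule and were chosen after their values were seen. Alternatives were leaving out each library, other level limits, TPM, shares of summed FPKM, levels not divided by length, median-of-ratios scaling and other promoter settings. Runs of silent genes are not described, since those found held few genes with a row or none. Some genes of the lists are not reported here, and 2 families are left out of the plot of leading members.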

Additional observations from a re-analysis of the deposited data

How the results depend on the processing

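No paired analysis was possible because all values come from 1 group. Leaving out each library in turn kept the number of expressed genes between 11730 and 11748, against 11607 with all 3. Limits of 0.5 and 2 FPKM gave 13170 and 9937 expressed genes and 1 TPM gave 14780. Of the 51 lists, 6 changed their count of expressed members by over 1.5 times with 1 TPM, 3 with 0.5 FPKM and 1 with 2 FPKM. The last was the list of other organs, from 2 to 1. Among the others the proximal tubule list went from 8 to 14 with 1 TPM, the distal nephron list from 3 to 8 with 1 TPM and 6 with 0.5 FPKM, the claudins from 7 to 11 and the drug efflux pumps from 5 to 8 with 1 TPM, the aquaporins from 0 to 2 with 1 TPM and 1 with 0.5 FPKM, and the endothelial list from 0 to 1 with either. As shares of summed FPKM in place of fragments, the mitochondrial genome came to 9.42%, cytosolic ribosomal protein genes to 10.1%, the 10 most abundant nuclear protein-coding genes to 6.47%, long non-coding RNA genes to 1.455%, metallothioneins to 1.25% and glycolytic genes to 2.10%, since short genes weigh more there. The median of expressed protein-coding genes was 7.58 FPKM and 30.1 TPM, because summed FPKM is lower than summed TPM. With bases before the start alone, CpG-rich windows came to 82.2% above 1 to 10 FPKM, 86.2% above 10 to 100 FPKM and 72.4% over all matched genes. With a CpG limit of 0.75 they came to 69.4%, 73.9% and 60.1%, and to 75.1% above 100 FPKM. Leaving out genes with 50% or more of their coding bases shared, an alternative added after the data were seen, left 666 expressed list members of 687 and 10252 expressed protein-coding genes of 10543. The number of families with a clear leading gene was 36 when levels were not divided by length, against 37. Depth limits genes near 0.1 FPKM, where a level rests on few fragments, and without counts per position reads of overlapping genes cannot be separated.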

Other observations

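S100 and annexin genes, which bind calcium and membranes, were not described above. Of 12 S100 genes 8 were expressed, and S100A6, S100A11 and S100A10 stood apart, with 424, 435 and 423 FPKM for S100A6, 361, 377 and 362 FPKM for S100A11 and 308, 301 and 306 FPKM for S100A10. S100A16, the next, stood at 30.6, 32.6 and 31.3 FPKM. Of 12 annexins 9 were expressed. ANXA5 stood at 145, 144 and 143 FPKM, above ANXA2, the partner of S100A10 at the membrane, at 128, 125 and 125 FPKM, and ANXA10 was listed at 0.

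Integrins join cells to the matrix, and 16 of 24 were expressed. ITGB1, the common beta chain, stood at 287, 289 and 292 FPKM, followed by ITGA3, which pairs with it to bind laminin, at 201, 198 and 194 FPKM. ITGAV, the alpha chain of vitronectin receptors, stood at 71.5, 71.9 and 73.9 FPKM. ITGB2, a chain known from leukocytes, was expressed at 11.9, 11.02 and 11.1 FPKM, while ITGAL, its partner on lymphocytes, had a highest value of 0.00577 FPKM.

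Of the serine and one-carbon enzymes 12 of 15 were expressed. SHMT2, the mitochondrial serine hydroxymethyltransferase, stood at 58.8, 57.9 and 57.7 FPKM, above SHMT1, the cytosolic form, at 8.14, 7.21 and 7.76 FPKM. Of the cancer-testis antigens 2 of 20 had a row, PRAME at 11.2, 10.9 and 11.1 FPKM and TEX15 at 2.25, 2.36 and 2.40 FPKM, and the other 18 are not analysed here.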
